A study of Homo sapiens with 14 samples.

Results

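The genes described here are 35 genes of glucose transport, glycolysis, lactate formation and export, and the entry of pyruvate into mitochondria, chosen by name as the enzymes, transporters and regulators of these steps. They were measured by RNA-seq in CHP-134, an established human neuroblastoma line with amplified MYCN, in a pair of experiments with 14 libraries in all. In the OmoMYC experiment, CHP-134 cells had been transduced with lentivirus and selected with G418 to express either EGFP or OmoMYC from a Tet-On promoter, and both lines were given doxycycline at 1 µg/ml for 3 days (3 libraries each). OmoMYC derives from the dimerization domain of MYC, altered so that it takes the place of MYC proteins with their partners and on DNA. Since each line was engineered on its own, a difference between the lines cannot be told apart from an effect of OmoMYC. In the parental experiment, CHP-134 cells without any FKBP12-tagged protein were given 500 nM dTAG47, a degrader of FKBP12-tagged proteins, or DMSO for 18 h (4 libraries each). It asks what dTAG47 does to gene expression where it has no tagged target.

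Glycolysis turns glucose into pyruvate in the cytosol. Glucose enters through GLUT transporters, hexokinases trap it by phosphorylation, phosphofructokinase commits it to breakdown, and the later payoff steps yield ATP and pyruvate. Pyruvate is then either reduced to lactate by lactate dehydrogenase and exported, or carried into mitochondria and oxidized by the pyruvate dehydrogenase complex, which kinases (PDKs) switch off and phosphatases (PDPs) switch on. MYC proteins and hypoxia-inducible factors are both known to raise the expression of glycolytic genes in tumors, and MYC proteins bind DNA at E-boxes, of which CACGTG is the best known.

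Of the 35 genes, all were listed in the parental table of 19143 genes and 32 in the OmoMYC table of 17810 genes. ENO2, PGK1 and TPI1 were not analysed in the OmoMYC experiment. The glucose transporter SLC2A3 (GLUT3) had 0 to 2 counts per library in the OmoMYC experiment and 0 to 6 in the parental experiment, and did not pass the filter on low counts in either. DLAT, the E2 subunit of pyruvate dehydrogenase, had 0 to 5 counts in the OmoMYC experiment, where it was not tested, but 4387 to 5790 in parental cells of the same line. Its neighbor PIH1D2 had 0 counts in all 6 OmoMYC and EGFP libraries and 42 to 74 in the parental libraries, and ACLY was at 28.4 ± 2.53 CPM (SD, n = 3) with EGFP and 1697 ± 44.6 CPM (SD, n = 4) with DMSO. ACLY had a second entry in the OmoMYC experiment, with 0 to 2 counts per library. In that experiment 538 entries shared a gene symbol with another entry, against 82 in the parental experiment. The cause of such differences between the tables was not tested, and each experiment was fitted on its own. Tests covered 30 of the genes in the OmoMYC experiment and 34 in the parental experiment.

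Libraries held 28060817 to 53451641 counts. Levels are given as CPM, counts scaled to a common library total after TMM normalization, and per kb where different genes are compared. A gene was called at a false discovery rate (FDR, the Benjamini-Hochberg adjusted p) below 0.05 in edgeR's quasi-likelihood test over all tested genes, and SE is the standard error of a log2 fold change. MYC, from which the OmoMYC transgene derives, was at 0.568 to 0.689 CPM in the EGFP libraries and at 513 to 527 CPM in the OmoMYC libraries, as the labels imply, and MYCN, the family member amplified in these cells, had a log2 fold change of -0.28. EGFP replicate 1 stood apart from its group, with a chi-square statistic (over its degrees of freedom) of 21.7 and 43.5 against the other EGFP libraries, which differed from each other by 8.15, while OmoMYC libraries differed by 2.86 to 9.02. Markers of adrenergic neuroblastoma cells were abundant, with 11 of 11 tested and summed levels of 4171 to 4894 CPM with EGFP and 4258 to 4465 CPM with OmoMYC. Of 6 leukocyte markers, 5 were listed in the OmoMYC table and all were under 1 CPM, and they (PTPRC and CD14 called lower) summed to 1.03 to 1.40 CPM with EGFP and 0.467 to 0.614 CPM with OmoMYC. Over all tested genes 27.3% were called higher and 25.7% lower with OmoMYC. Among the adrenergic markers 6 were called higher and 1, MYCN, lower. Of 7 tested fibroblast or mesenchymal markers 2 were higher (COL1A1 and DCN) and 2 lower (COL1A2 and VIM), and the list summed to 216 to 236 CPM with EGFP and 191 to 195 CPM with OmoMYC. Epithelial markers summed to 0.788 to 1.58 and 1.28 to 1.48 CPM and endothelial markers to 0.276 to 0.358 and 1.09 to 2.29 CPM, with KDR called higher. The part of these shifts in the results was not tested. From such bulk cultures, fewer cells of a kind and less RNA per cell cannot be told apart.

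Promoter sequences are shown for the 6 members that held CACGTG before a start and were called in at least 1 of the experiments. RefSeq windows of 300 bases, 250 before and 50 after a transcription start on GRCh38.p14, were found for 31 of the 35 members (62 windows). CACGTG, which reads the same on both strands, was found in 8 of the 62 windows (12.9%) against 7.26% of all 35116 windows. The 8 members with the motif were HK2, PFKFB3, ALDOA, ALDOC, GAPDH, LDHA, PDK2 and PDHB. The shorter ACGTG, the core of the hypoxia response element, was found outside CACGTG on either strand in 18 member windows (29.0%) against 15.5% of all windows. The bases before the start are printed 5′ to 3′ along the gene, with CACGTG in capitals. LDHA, HK2, ALDOA, PFKFB3 and PDK2 have several starts, and only the window shown for each held CACGTG. Distances are to the start of the window shown. LDHA (chr11:18394313-18394562, plus strand) held CACGTG 185 and 87 bases before the start, and HK2 (chr2:74834920-74835169, plus strand) 194 and 149 bases before it. CACGTG lay 240 bases before the start of ALDOC (chr17:28576896-28577145, minus strand), 112 before that of ALDOA (chr16:30064247-30064496, plus strand), 108 before that of PFKFB3 (chr10:6202682-6202931, plus strand) and 129 before that of PDK2 (chr17:50095101-50095350, plus strand).
LDHA: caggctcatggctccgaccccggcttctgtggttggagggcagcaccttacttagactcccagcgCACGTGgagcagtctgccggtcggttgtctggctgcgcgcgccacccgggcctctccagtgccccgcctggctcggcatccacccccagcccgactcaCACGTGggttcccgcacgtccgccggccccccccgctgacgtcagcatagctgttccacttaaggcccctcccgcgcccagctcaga
HK2: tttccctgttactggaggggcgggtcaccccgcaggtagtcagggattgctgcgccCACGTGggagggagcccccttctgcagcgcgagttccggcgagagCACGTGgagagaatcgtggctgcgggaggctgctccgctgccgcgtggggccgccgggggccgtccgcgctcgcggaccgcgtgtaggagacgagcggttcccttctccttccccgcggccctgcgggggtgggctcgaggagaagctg
ALDOA: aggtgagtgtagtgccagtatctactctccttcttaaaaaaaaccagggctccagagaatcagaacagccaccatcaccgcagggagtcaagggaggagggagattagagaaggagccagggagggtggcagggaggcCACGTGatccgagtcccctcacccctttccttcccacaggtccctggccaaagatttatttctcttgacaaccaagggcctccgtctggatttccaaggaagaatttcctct
ALDOC: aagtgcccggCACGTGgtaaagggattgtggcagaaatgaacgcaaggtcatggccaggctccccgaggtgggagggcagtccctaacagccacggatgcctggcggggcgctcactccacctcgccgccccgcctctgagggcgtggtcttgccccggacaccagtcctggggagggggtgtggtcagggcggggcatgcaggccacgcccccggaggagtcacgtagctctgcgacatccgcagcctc
PFKFB3: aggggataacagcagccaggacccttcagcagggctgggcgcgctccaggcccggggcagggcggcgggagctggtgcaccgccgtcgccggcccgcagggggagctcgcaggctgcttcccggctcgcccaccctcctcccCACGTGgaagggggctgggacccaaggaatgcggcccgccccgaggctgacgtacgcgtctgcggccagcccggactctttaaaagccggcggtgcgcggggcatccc
PDK2: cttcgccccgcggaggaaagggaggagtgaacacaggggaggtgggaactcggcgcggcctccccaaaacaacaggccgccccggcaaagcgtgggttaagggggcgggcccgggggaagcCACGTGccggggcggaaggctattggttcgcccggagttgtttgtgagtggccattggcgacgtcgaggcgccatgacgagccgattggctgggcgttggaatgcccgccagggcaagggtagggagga
A match of letters is a description of these windows and not a measured binding site.

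With OmoMYC, members were called in both directions. Both lactate dehydrogenases, the main lactate transporter, both subunits of the mitochondrial pyruvate carrier, PGAM1, ENO1, ALDOC and PDK1 were lower. The pyruvate dehydrogenase phosphatase PDP1 rose 4.83-fold, and SLC16A3, PDK2, ENO3, PKM and BPGM rose less. In all, 6 of the 30 tested members were called higher and 9 lower, against backgrounds of 27.3% of all 13803 tested genes called higher and 25.7% called lower. In either direction 15 of 30 members were called, close to the 53.0% of all tested genes. The median log2 fold change of the members was -0.05, and that of all tested genes was 0.01. The groups did not overlap for 7 members that were higher and 11 that were lower, against 32.0% and 30.3% of all tested genes (62.3% in either direction).

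Correcting each library for GC content and transcript length gave another split, with 6 members higher and 17 lower and a members' median of -0.25. The 6 were another set, as PKM and PDK2 lost their calls and PDK3 and PDHB were called higher. With this correction the calls over all genes went from 3766 higher and 3545 lower to 3023 higher and 5425 lower, and the median of all genes to -0.08. Without EGFP replicate 1, the library that stood apart, 13 members were called lower, with 27.8% of all tested genes lower and a members' median of -0.14. The members gained were SLC2A1 (-0.22, FDR = 0.00696, edgeR), HK2 (-0.25), GPI (-0.15), PFKP (-0.17) and ALDOA (-0.25), and MPC2 was lost.

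**Figure D1:**
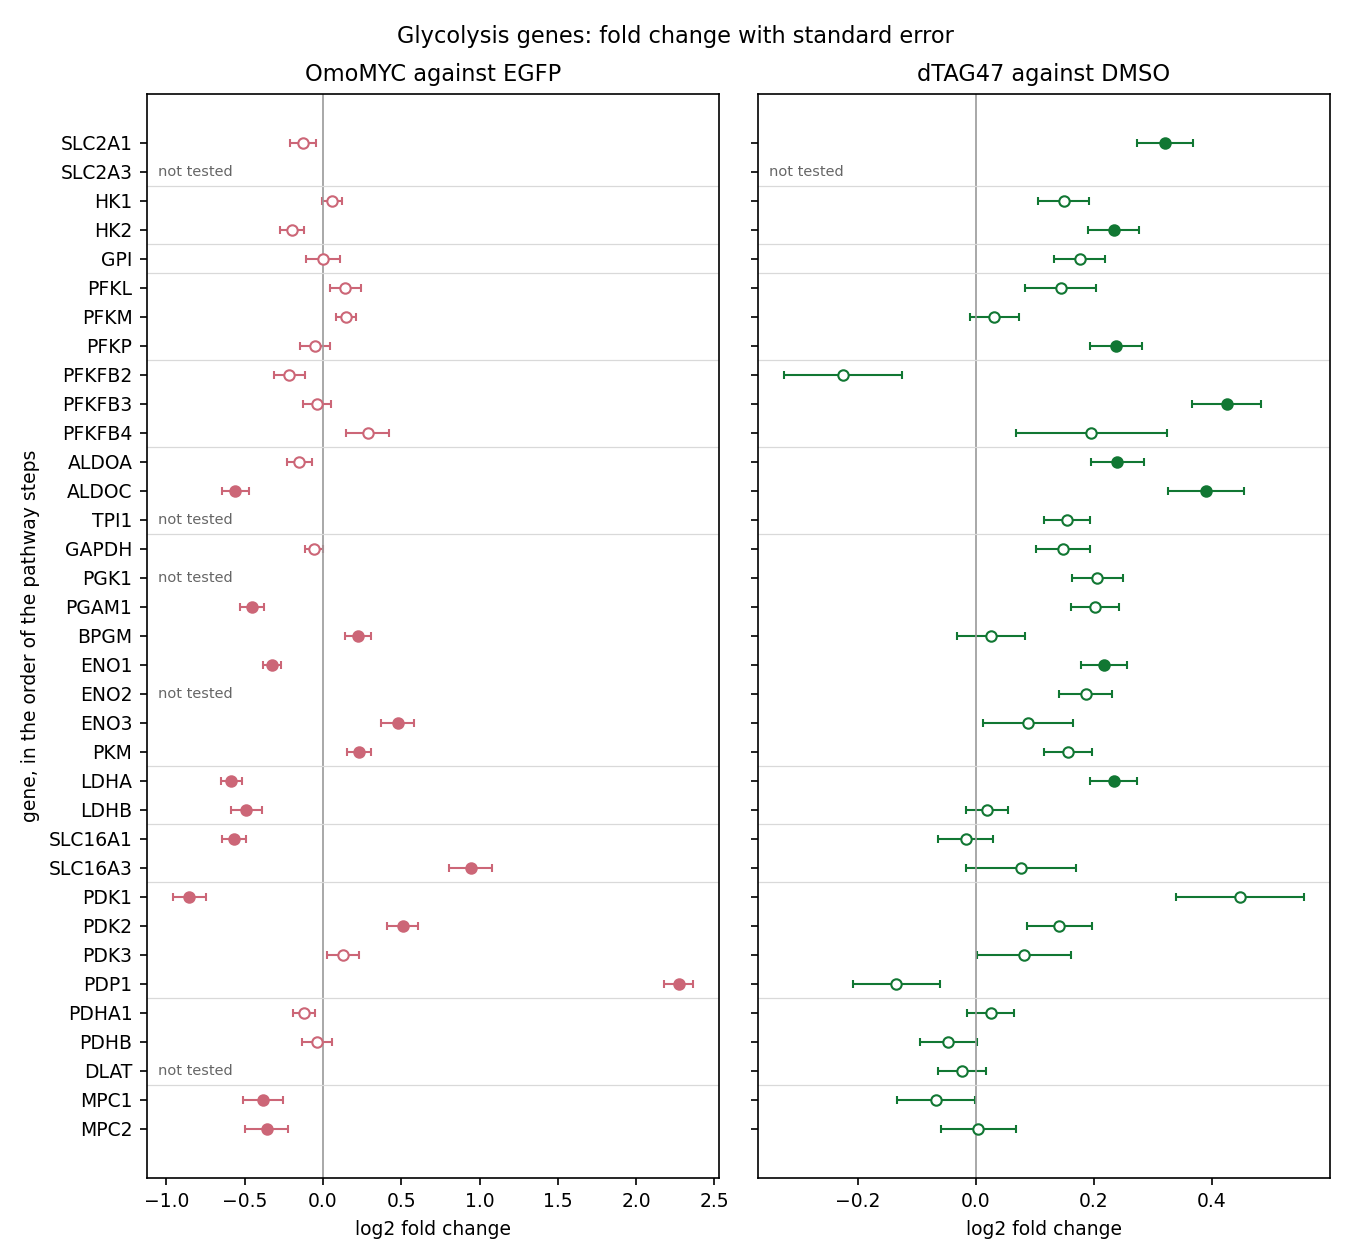
Log2 fold change with its standard error for the tested members, in the order of the pathway, for OmoMYC against EGFP (left, 30 tested members, 3 libraries each) and dTAG47 against DMSO (right, 34 tested members, 4 libraries each); filled points are called at an FDR below 0.05, and the horizontal scales differ. PDP1 stands alone at 2.27 on the left, and on the right the called genes lie between 0.22 and 0.42.

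At the entry of glucose, 0 of the 3 tested members were called with OmoMYC when all libraries were used. SLC2A1 (GLUT1), the main glucose transporter counted here, was at 78.3, 87.6 and 96.9 CPM in EGFP replicates 1 to 3 and at 80.9, 79.1 and 80.4 CPM in the OmoMYC replicates. The groups overlapped (log2 fold change -0.13, SE 0.08, FDR = 0.220, edgeR), but without EGFP replicate 1, the lowest EGFP library, SLC2A1 was called lower (-0.22). HK1, the housekeeping hexokinase, was at 299, 311 and 329 CPM with EGFP and at 331, 319 and 325 CPM with OmoMYC, also overlapping. HK2, the inducible hexokinase of many tumors, was at 115, 115 and 134 CPM with EGFP and at 106, 103 and 109 CPM with OmoMYC. Every OmoMYC library was below every EGFP library for HK2, yet its log2 fold change of -0.20 missed the threshold (FDR = 0.0513, edgeR) and passed it under 6 of 10 alternatives. HK2 thus made up 19.2% to 20.7% of the hexokinase level per kb of transcript with EGFP and 17.0% to 17.6% with OmoMYC.

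Of the enzymes of the preparatory steps, ALDOC alone was called with all libraries. PFKP, the platelet type of phosphofructokinase, was at 129.5, 159 and 168 CPM with EGFP and at 144, 145 and 152 CPM with OmoMYC. These groups overlapped, with a log2 fold change of -0.05 that became -0.17 with a call (FDR = 0.0173, edgeR) without EGFP replicate 1. PFKL, PFKM, GPI and the PFKFB enzymes PFKFB2, PFKFB3 and PFKFB4, which make and break down fructose-2,6-bisphosphate, an activator of phosphofructokinase, had log2 fold changes from -0.21 to 0.28, with groups that did not overlap for PFKM (0.15) and PFKFB2 (-0.21). With the correction for GC content and length, HK1 (-0.23), PFKL (-0.31), SLC2A1 (-0.38), HK2 (-0.42), PFKP (-0.39), PFKFB2 (-0.22), PFKFB3 (-0.39) and ALDOA (-0.49) were called lower. Of these, HK1 and PFKL turned from above 0 to below. ALDOC (chromosome 17 of hg19 from 26900133 to 26903966, minus strand), the brain aldolase, was at 36.5, 37.9 and 37.3 CPM with EGFP and at 27.7, 23.7 and 24.5 CPM with OmoMYC. It fell by 0.56 on the log2 scale (SE 0.08, FDR = 0.000348, edgeR) and was called whichever library was left out. ALDOA, the major aldolase, had means of 1003 ± 107 CPM in EGFP and 903 ± 25.9 CPM in OmoMYC libraries (SD, n = 3 each) and was called lower only without EGFP replicate 1 among the fits that leave out a library.

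**Figure D2:**
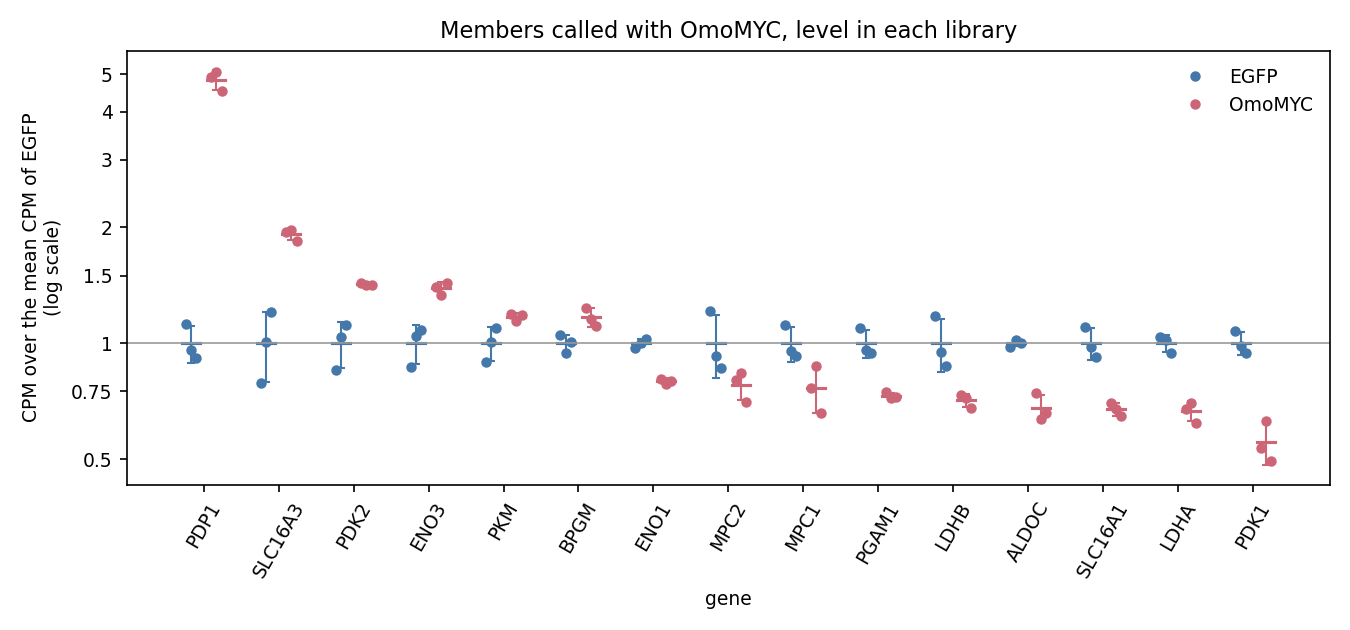
CPM of each library divided by the mean CPM of the EGFP libraries (vertical axis, log scale) for the 15 members called with OmoMYC, with the mean and SD of each group (3 libraries each). The OmoMYC libraries lie apart from the EGFP libraries in all 15 genes, at 4.51 to 5.07 times the EGFP mean for PDP1 and 0.495 to 0.629 times for PDK1.

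The payoff steps were split between falls and rises. PGAM1, which moves the phosphate of phosphoglycerate, was at 158, 139 and 137 CPM with EGFP and at 108, 104 and 105 CPM with OmoMYC. It fell by 0.45 on the log2 scale (SE 0.07, FDR = 0.000627, edgeR). ENO1, the main enolase, fell from 1094 ± 26.8 to 872 ± 14.9 CPM (SD, n = 3 each, log2 fold change -0.33). PGAM1 and ENO1 were called with every library left out and under all 10 other alternatives. ENO3, the muscle enolase, went the other way, from 10.9, 13.2 and 13.7 CPM with EGFP to 17.6, 16.8 and 18.1 CPM with OmoMYC. Its log2 fold change was 0.48 (SE 0.10, FDR = 0.00318, edgeR), and it rose from 1.24% to 1.47% of the summed level of ENO1 and ENO3 per kb with EGFP to 2.36% to 2.47% with OmoMYC. The GC and length correction gave 0.25 for ENO3 and -0.52 for ENO1, both still called. PKM, the pyruvate kinase gene, was at 1845, 2077 and 2263 CPM with EGFP and at 2449.7, 2358 and 2447 CPM with OmoMYC. BPGM, which makes bisphosphoglycerate, was at 30.6, 27.5 and 29.3 CPM with EGFP and at 36.1, 33.7 and 32.3 CPM with OmoMYC. Both were called higher (log2 fold changes 0.23 and 0.22, FDR = 0.0243 and 0.0403, edgeR), but these calls were not stable. PKM was not called without EGFP replicate 2 or any OmoMYC replicate and BPGM was called only without EGFP replicate 1, with FDR values up to 0.124 and 0.227, and BPGM was also not called by DESeq2, with RLE or upper quartile factors, or without the filter on low counts. With the correction for GC content and length the log2 fold change of PKM was -0.06 and that of BPGM 0.42. GAPDH was at 1586, 1701 and 1722 CPM with EGFP and at 1636, 1611 and 1573 CPM with OmoMYC. These groups overlapped, though GAPDH was called lower after the GC and length correction (-0.27).

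Both genes of lactate dehydrogenase were called lower. LDHA (chromosome 11 of hg19 from 18416107 to 18429972, plus strand), the subunit that favors lactate formation, was at 1042, 1025 and 945 CPM with EGFP and at 679, 704 and 625 CPM with OmoMYC. It fell by 0.58 on the log2 scale (SE 0.07, FDR = 7.02e-05, edgeR), with no overlap of the groups. LDHB (chromosome 12 from 21788276 to 21910791, minus strand), the subunit of oxidative tissues, was at 1366, 1102 and 1012 CPM with EGFP and at 849.6, 838 and 789.9 CPM with OmoMYC. Its log2 fold change was -0.49 (SE 0.10, FDR = 0.00207, edgeR), and its highest value was in EGFP replicate 1. Because both fell, LDHA made up 30.7% to 35.2% of the lactate dehydrogenase level per kb with EGFP and 31.5% to 32.8% with OmoMYC. Both genes were called whichever library was left out, with log2 fold changes from -0.66 to -0.57 for LDHA and from -0.61 to -0.37 for LDHB. With the correction for GC content and length they were still called, at -0.39 and -0.28.

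The lactate transporters moved in opposite directions. SLC16A1 (MCT1, chromosome 1 of hg19 from 113454469 to 113500215, minus strand) was at 295, 260.0 and 245 CPM with EGFP and at 187, 180.3 and 173 CPM with OmoMYC. It fell by 0.57 on the log2 scale (SE 0.08, FDR = 0.000216, edgeR). SLC16A3 (MCT4, chromosome 17 from 80175810 to 80219005, plus strand), the exporter of highly glycolytic cells, was at 5.99, 7.66 and 9.16 CPM with EGFP and at 14.8, 14.9 and 14.01 CPM with OmoMYC. Its rise of 1.92-fold (log2 0.94, SE 0.14, FDR = 0.000306, edgeR) took it from 2.85% to 5.12% of the summed transporter level per kb with EGFP to 10.3% to 10.7% with OmoMYC. SLC16A1 was still the more abundant of the pair per kb of transcript, at 47.9 CPM per kb against 5.62 CPM per kb for SLC16A3 with OmoMYC. Both calls held with each library left out and under all 10 other alternatives, and the GC and length correction gave -0.40 and 0.50.

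The regulators of pyruvate dehydrogenase held the largest change among the members. PDP1 (chromosome 8 of hg19 from 94870035 to 94938296, plus strand), the phosphatase that reactivates the complex, was at 39.6, 34.0 and 32.2 CPM with EGFP and at 173, 179 and 159 CPM with OmoMYC. Its log2 fold change of 2.27 (SE 0.09, FDR = 2.91e-08, edgeR) ranged from 2.18 to 2.35 as single libraries were left out. PDK1 (chromosome 2 from 173420101 to 173473397, plus strand), a kinase that inactivates the complex, was at 31.5, 28.8 and 27.6 CPM with EGFP and at 15.6, 18.4 and 14.5 CPM with OmoMYC. It fell by 0.85 on the log2 scale (SE 0.10, FDR = 9.74e-05, edgeR), the largest fall among the tested members. PDK2 (chromosome 17 from 48172101 to 48189516, plus strand), a widely expressed kinase of the same family, was at 29.3, 35.7 and 38.3 CPM with EGFP and at 49.2, 48.8 and 48.8 CPM with OmoMYC. It rose by 0.51 on the log2 scale (FDR = 0.00165, edgeR), but by 0.09 without a call after the GC and length correction. PDK3 was not called (0.13), but was called higher after the GC and length correction (0.25, FDR = 0.0129, edgeR). Per kb of transcript, PDP1 made up 28.2% to 33.9% of its sum with the 3 kinases with EGFP, and 61.9% to 64.5% with OmoMYC. PDK1 made up 10.0% to 12.2% of the kinases alone per kb with EGFP and 4.43% to 5.57% with OmoMYC. This PDK1 share depends on the transcript length taken, 14.1 kb against 3.36 kb for PDK2 and 1.74 kb for PDK3. By counts alone it was 36.0% to 42.7% with EGFP and 18.9% to 22.9% with OmoMYC.

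Both genes of the mitochondrial pyruvate carrier were called lower, at low levels and not under every setting. MPC1, a subunit of the mitochondrial pyruvate carrier, was at 10.7, 9.10 and 8.85 CPM with EGFP and at 7.30, 8.31 and 6.28 CPM with OmoMYC (log2 fold change -0.38, SE 0.13, FDR = 0.0285, edgeR). MPC2, its partner, had a log2 fold change of -0.36 (FDR = 0.0474). MPC1 was not called without OmoMYC replicate 1 or 3 (FDR up to 0.0866), nor MPC2 without EGFP replicate 1 or 2 or OmoMYC replicate 1 or 3 (up to 0.127), and neither was called after the GC and length correction (-0.08 and -0.17). The catalytic subunits PDHA1 (-0.12) and PDHB (-0.04) were not called, but after that correction PDHA1 was called lower (-0.12) and PDHB higher (0.14).

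**Figure D3:**
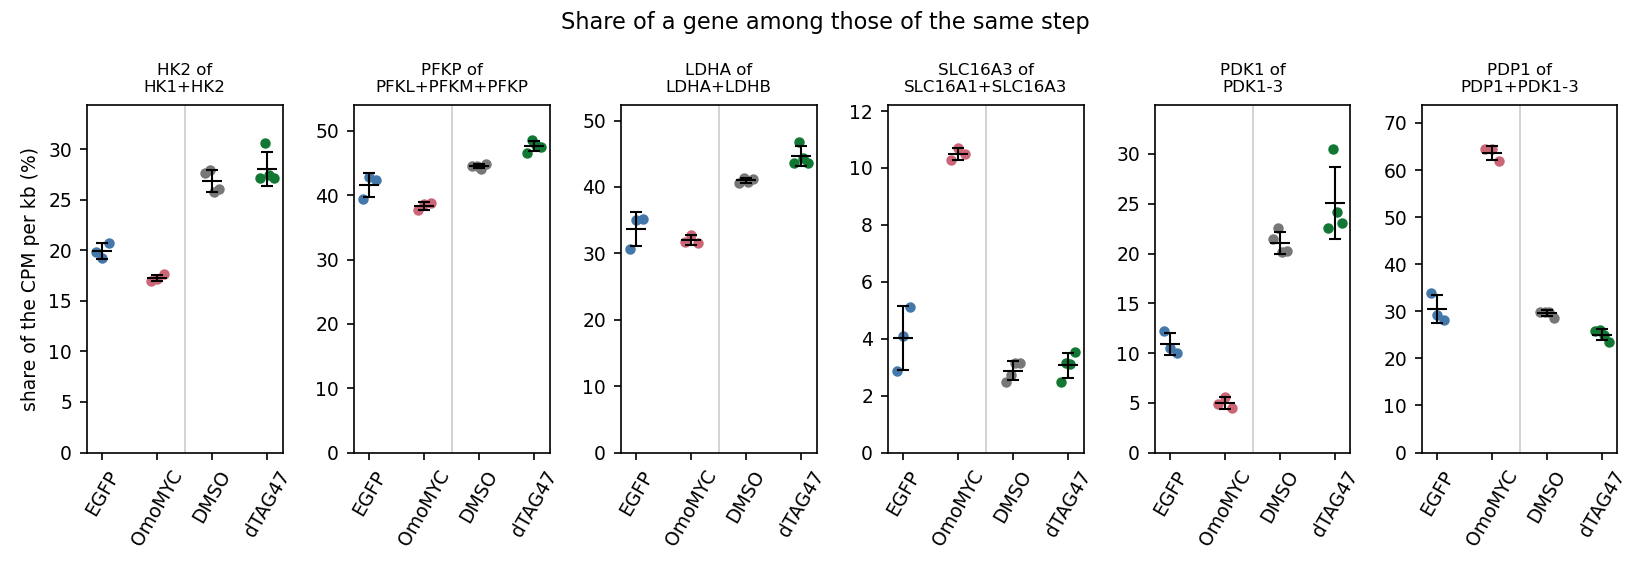
Share of a gene in the summed CPM per kb of the genes of its step (percent, vertical axes from 0), per library, with the mean and SD of each group (3 EGFP, 3 OmoMYC, 4 DMSO and 4 dTAG47 libraries). With OmoMYC the shares of SLC16A3 and PDP1 lie above and those of HK2, PFKP and PDK1 below the EGFP libraries, and with dTAG47 the shares of LDHA, PFKP and PDK1 lie above and that of PDP1 below DMSO.

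Neighboring pathways were read with the same fit, in which 27.3% of all tested genes were called higher and 25.7% lower with OmoMYC. Among 27 tested genes for other isoforms and regulators of the pathway, 11 were higher and 6 lower with OmoMYC, with a median log2 fold change of 0.23. The gluconeogenic enzymes FBP1 and FBP2 were among the higher genes, FBP1 with 0 to 2 counts in the EGFP and 35 to 53 counts in the OmoMYC libraries, and FBP2 with 0.555 ± 0.207 and 1.54 ± 0.153 CPM (SD, n = 3 each). The D-lactate dehydrogenase LDHD rose 4.47-fold from 0.377 ± 0.245 CPM, and the glucose transporter SLC2A12 had a log2 fold change of -1.36 at under 1 CPM. Of 19 tested genes of glycogen metabolism, 6 were higher and 3 lower. The glycogen phosphorylases differed in direction, as the brain form PYGB rose from 57.5 ± 4.85 to 152 ± 6.40 CPM and the muscle form PYGM from 0.774 ± 0.180 to 4.43 ± 0.222 CPM, while the liver form PYGL fell from 3.86 ± 0.247 to 1.69 ± 0.213 CPM. In the citric acid cycle 5 of 22 tested genes were higher and 9 lower, with pyruvate carboxylase (PC) at a log2 fold change of 0.80 and the succinate dehydrogenase subunit SDHD at -0.96. In the pentose phosphate pathway 2 of 10 were higher and 4 lower, with PGLS at 0.58 and PRPS2 at -0.86.

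Hypoxia-induced genes outside glycolysis, which share a regulator with many members, had 7 of 29 tested genes higher and 12 lower with OmoMYC and a median of -0.20. Over all tested genes 27.3% were higher and 25.7% lower. BHLHE41, a circadian repressor, rose most among them, from 0.257 ± 0.0522 to 2.76 ± 0.298 CPM (SD, n = 3 each). Among the hypoxia-inducible factors and oxygen sensors, 5 of 8 were higher and 1 lower, and EPAS1 (HIF-2α) rose from 0.326 ± 0.0189 to 5.45 ± 0.144 CPM (SD, n = 3 each).

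With dTAG47 in parental cells the differences were smaller, and those called were in 1 direction. The 8 members called were all higher: PFKFB3, ALDOC, SLC2A1, ALDOA, PFKP, LDHA, HK2 and ENO1, by 16.2% to 34.3%. They made up 8 of the 17 genes called higher in the whole comparison, and 0 members were called lower. Of all 14470 tested genes 0.117% were called higher and 0.0415% lower. The members were chosen with earlier results of these data known, so this count may not be independent of that choice. Of the 34 tested members, 28 had a log2 fold change above 0 and 6 below, and their median was 0.15 against -0.00 for all tested genes. PFKFB2 had the lowest, -0.23, with overlapping groups (FDR = 0.673, edgeR). The dTAG47 libraries lay above all DMSO libraries for 16 members and below them for 0, against 1.87% and 1.47% of all tested genes (3.34% in either direction). DESeq2, the tool the study used, called 12 members higher and 0.246% of the 17865 genes with any count.

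PFKFB3 (chromosome 10 of hg19 from 6186897 to 6296607, plus strand), which makes the phosphofructokinase activator, was at 86.9, 93.6, 96.9 and 89.5 CPM in DMSO replicates 1 to 4 and at 107, 131, 127 and 126 CPM in the dTAG47 replicates. Its log2 fold change was 0.42 (SE 0.06, FDR = 0.00632, edgeR), and it alone of the members was called with each of the 8 libraries left out. SLC2A1 (chromosome 1 from 43391024 to 43424564, minus strand) was at 63.4, 66.0, 68.1 and 65.3 CPM with DMSO and at 76.0, 85.6, 84.2 and 82.4 CPM with dTAG47 (log2 fold change 0.32, SE 0.05, FDR = 0.0104, edgeR). In both genes dTAG47 replicate 1 was the lowest treated library and still above every DMSO library. HK2 was at 148, 152, 139 and 143 CPM with DMSO and at 163, 180.0, 169 and 173 CPM with dTAG47 (log2 fold change 0.23, FDR = 0.0476, edgeR). PFKP was at 141, 142, 146 and 151 CPM with DMSO and at 160.4, 169, 176 and 178 CPM with dTAG47 (log2 fold change 0.24). PFKP made up 44.1% to 44.9% of the phosphofructokinase level per kb with DMSO and 46.6% to 48.6% with dTAG47.

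Both aldolases rose. ALDOC was at 22.7, 24.8, 25.7 and 24.0 CPM with DMSO and at 28.0, 32.1, 33.8 and 33.4 CPM with dTAG47 (log2 fold change 0.39, SE 0.06, FDR = 0.0294, edgeR). ALDOA was at 678, 696, 751 and 752 CPM with DMSO and at 834, 802, 869 and 891 CPM with dTAG47 (log2 fold change 0.24). In each of these genes every dTAG47 library was above every DMSO library. In the payoff phase ENO1 was called, at 890.3, 942, 988 and 962 CPM with DMSO and at 1081, 1078, 1114 and 1123 CPM with dTAG47 (log2 fold change 0.22, FDR = 0.0397, edgeR). LDHA was at 1142, 1207, 1137 and 1118 CPM with DMSO and at 1338, 1439, 1326 and 1311 CPM with dTAG47 (log2 fold change 0.23, FDR = 0.0319, edgeR). LDHB was not called, with means of 964 ± 28.9 CPM in DMSO and 976 ± 22.9 CPM in dTAG47 libraries (SD, n = 4 each), and LDHA went from 40.5% to 41.4% of the lactate dehydrogenase level per kb with DMSO to 43.6% to 46.8% with dTAG47.

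**Figure D4:**
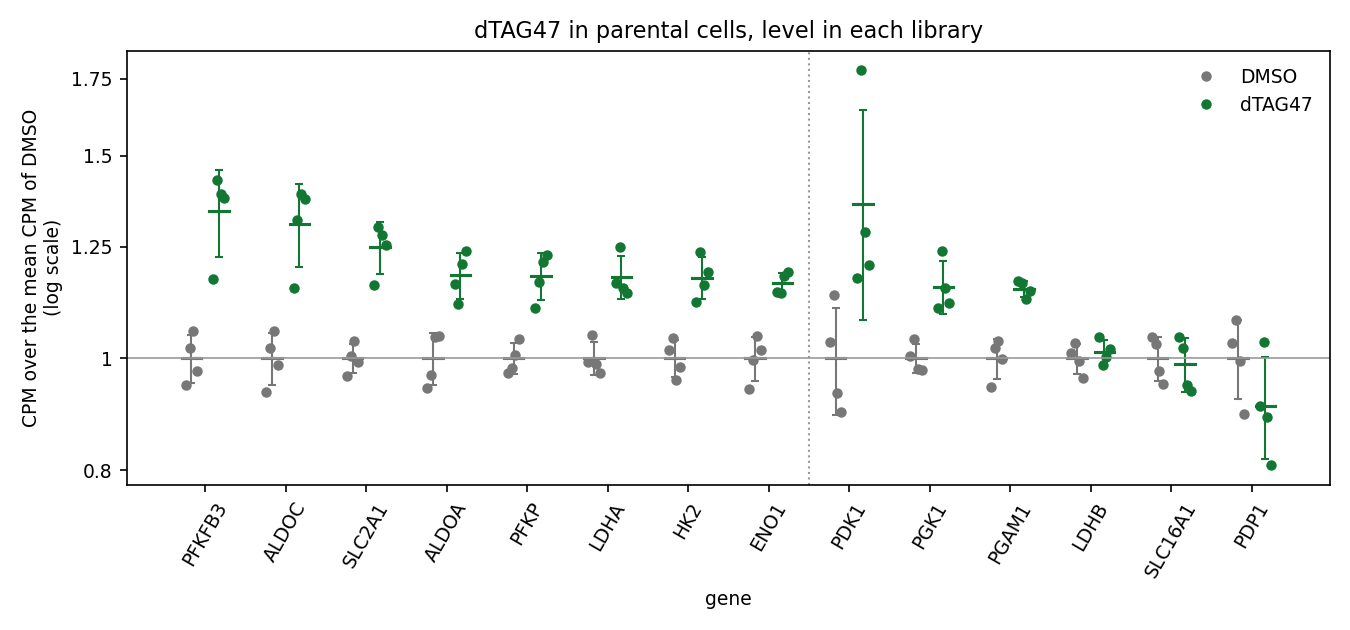
CPM of each library divided by the mean CPM of the DMSO libraries (vertical axis, log scale) for the 8 members called with dTAG47 (left of the dotted line) and 6 members not called (right), with the mean and SD of each group (4 libraries each). The dTAG47 libraries of the called genes lie at 1.11 to 1.43 times the DMSO mean, and PDK1 is spread by dTAG47 replicate 2, at 1.78 times.

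Other members had groups that did not overlap without passing the test, and these were picked out after their values were seen. PGAM1 had means of 156 ± 6.21 CPM in DMSO and 179 ± 2.90 CPM in dTAG47 libraries (SD, n = 4 each, log2 fold change 0.20, FDR = 0.0752, edgeR). PGK1, the first ATP-yielding enzyme of the payoff phase, was at 402 ± 11.9 and 463 ± 24.7 CPM (0.21, FDR = 0.0954). TPI1 (0.15), GPI (0.18), HK1 (0.15), ENO2 (0.19) and PKM (0.16) were alike in direction, with FDR values from 0.224 to 0.502. PDK1 had the largest log2 fold change of all members, 0.45, but a wide error (SE 0.11, FDR = 0.224, edgeR). It was at 51.7, 56.8, 46.7 and 44.9 CPM with DMSO and at 58.8, 89.0, 64.5 and 60.3 CPM with dTAG47, where replicate 2 stood above the rest. Without dTAG47 replicate 2 its log2 fold change was 0.29.

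Among the genes of lactate transport, the pyruvate carrier and pyruvate dehydrogenase, 0 were called with dTAG47. SLC16A1 (-0.02), SLC16A3 (0.08), PDHA1 (0.02), PDHB (-0.05), DLAT (-0.02), MPC1 (-0.07) and MPC2 (0.00) had overlapping groups. PDP1, which rose with OmoMYC, had means of 29.7 ± 2.34 CPM in DMSO and 27.1 ± 2.76 CPM in dTAG47 libraries (SD, n = 4 each, log2 fold change -0.13, FDR = 0.677, edgeR).

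The number of called members depended on single libraries and on replicate structure. Without DMSO replicate 1, DMSO replicate 4 or dTAG47 replicate 3 only PFKFB3 was called. Without DMSO replicate 3 the count was 2, without DMSO replicate 2 or dTAG47 replicate 1 it was 3, without dTAG47 replicate 4 it was 4, and without dTAG47 replicate 2 it was 14. The share of all tested genes called higher moved too. It was 0.117% with all libraries, 0.0275% without DMSO replicate 1 and 0.358% without dTAG47 replicate 2. SLC2A1 was called with 5 of the 8 libraries left out in turn, ALDOC and LDHA with 3, and HK2, PFKP, ALDOA and ENO1 with 1 (dTAG47 replicate 2), with FDR values up to 0.284. The fold changes of all 8 stayed above 0 in each of these fits. The DMSO libraries also split by number, with a chi-square statistic (over its degrees of freedom) of 2.67 between replicates 1 and 2 and 3.21 between 3 and 4, against 8.97 to 11.6 across these pairs, and no source names a batch. Among the dTAG47 libraries replicates 3 and 4 were also close to each other, at 2.70. Replicates 1 and 2 were not, at 8.43 against 5.84 between 1 and 3 and 8.70 between 1 and 4. There replicate 2 stood apart, at 15.3 and 23.4 against replicates 3 and 4. Deviations from the group mean correlated positively between DMSO and dTAG47 libraries of the same pair of numbers (0.0093 to 0.247). Across the pairs they correlated negatively (-0.226 to -0.0191). Within replicates 1 and 2 alone 0 members were called (median 0.15), and within replicates 3 and 4 alone 18 were called higher (median 0.16). Over all tested genes 4 were higher and 3 lower within replicates 1 and 2 alone. Within replicates 3 and 4 alone 426 (2.93%) were higher and 470 lower.

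**Figure D5:**
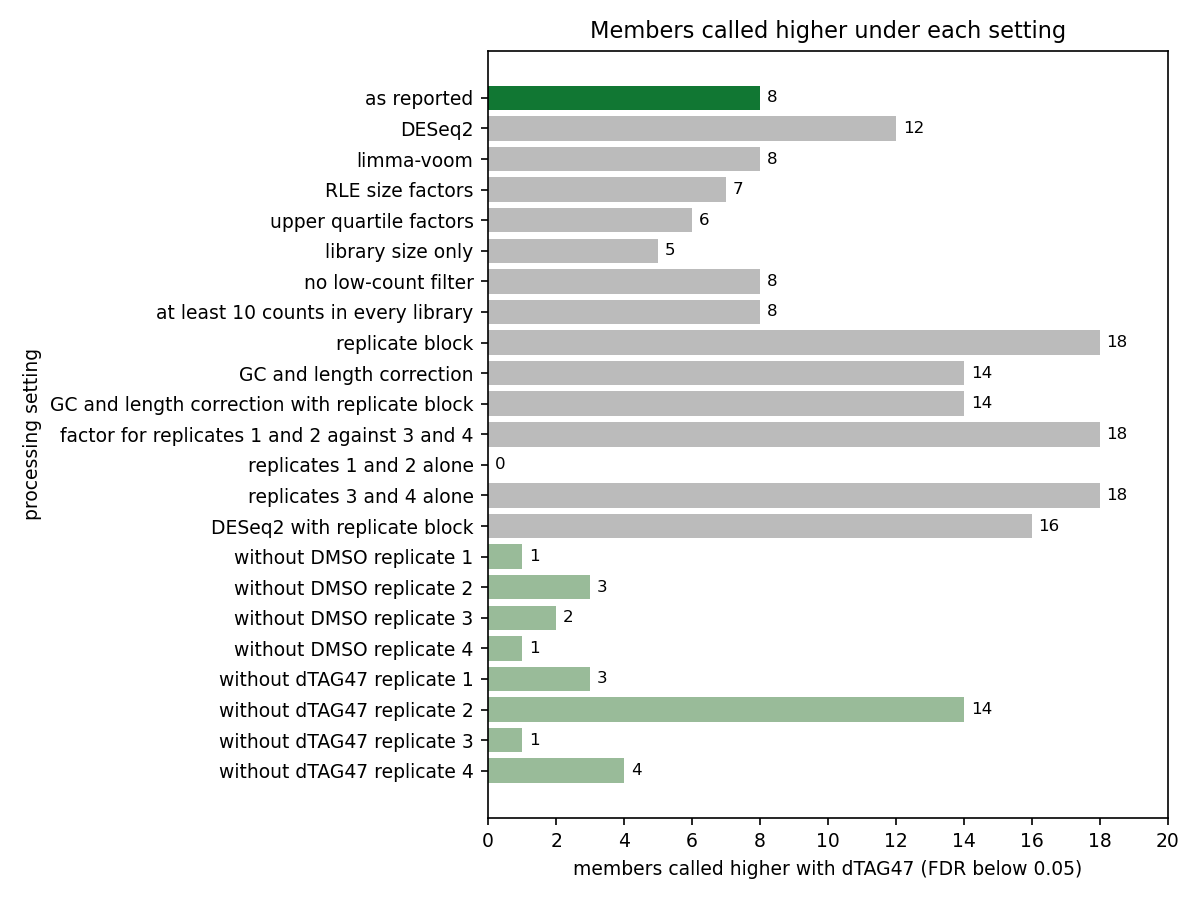
Number of members called higher with dTAG47 at an FDR below 0.05 (horizontal axis) under each processing setting, with the reported fit at the top and the 8 fits that leave out a library at the bottom. The count is 8 as reported, 1 to 14 without a library, and 18 with a replicate block or with replicates 3 and 4 alone. Of all tested genes 0.117% are called higher as reported and 0.0275% to 0.358% without a library. With the block the share is 2.11%, and with replicates 3 and 4 alone 2.93%.

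In the 6 lists of neighboring pathways, 0 genes were called with dTAG47, against 0.159% of all tested genes. Of 29 tested hypoxia-induced genes outside glycolysis, 0 were called by edgeR, 14 had an unadjusted p below 0.05, 23 had a log2 fold change above 0, and their median was 0.16. Over all 14470 tested genes, 1053 had an unadjusted p below 0.05 and 7121 a log2 fold change above 0. Those with the smallest p-values were DDIT4 (0.43, FDR = 0.0567, edgeR), FAM162A (0.44), KDM3A (0.31), BNIP3 (0.43) and VEGFA (0.39), chosen after their values were seen. Medians were 0.01 for other isoforms and regulators (26 tested genes), 0.05 for the pentose phosphate pathway (11), 0.00 for glycogen metabolism (20), 0.02 for the citric acid cycle (24) and 0.04 for hypoxia-inducible factors and oxygen sensors (7).

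Between the experiments, which share no libraries, 3 members were lower with OmoMYC and higher with dTAG47: LDHA (-0.58 and 0.23), ALDOC (-0.56 and 0.39) and ENO1 (-0.33 and 0.22). Of all tested genes 25.7% were lower and 27.3% higher with OmoMYC, and 0.117% were higher with dTAG47. The overlap between the experiments was not counted over all genes. A further 5 members were higher with dTAG47 and not called with OmoMYC, 6 were lower and 6 higher with OmoMYC and not called with dTAG47, and 0 were higher in both. Of the 8 members with CACGTG in a window, all tested in both experiments, 2 were lower (LDHA and ALDOC), 1 was higher (PDK2) and 5 were not called with OmoMYC, while 5 were higher with dTAG47 (ALDOA, ALDOC, HK2, LDHA and PFKFB3). Of the 19 tested members whose windows lacked it, 6 were lower and 4 higher with OmoMYC, against 25.7% and 27.3% of all tested genes. With dTAG47, 3 of 23 were higher (ENO1, PFKP and SLC2A1), against 0.117% of all tested genes.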

How the data were processed

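Total RNA from CHP-134 cultures was depleted of ribosomal RNA and sequenced. Per the study's methods and the submitters' processing notes the authors trimmed reads with Cutadapt, aligned them with STAR to hg19 and counted them with featureCounts, and the deposited values are raw counts per gene, whole numbers with no normalization. Neither the annotation nor the handling of reads that match several genes is given in the sources used here, so genes with processed pseudogenes, such as GAPDH, LDHA, LDHB, PGAM1, ENO1, TPI1, PGK1 and ALDOA, are uncertain where reads could be split. All 14 count columns were used. The list of Schwann cell markers is not reported here.

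From the counts, each experiment was fitted separately in R 4.3.3 with edgeR 4.0.16 (filterByExpr, TMM, robust quasi-likelihood test, group as the only term, Benjamini-Hochberg adjustment over all tested genes, FDR below 0.05). The study's tool, DESeq2 1.42.0, and limma 3.58.1 (voom) served as alternatives, beside other size factors and filters (none, or at least 10 counts in every library), a replicate block, a GC and transcript length correction (natural splines with 4 degrees of freedom) and leaving out each library, beside some chosen after seeing the data. The fits were tested on simulated data. Gene positions and lengths come from GENCODE lifted to hg19, and promoter windows from RefSeq on GRCh38.p14. The lists were written from general knowledge, and the members and lists were chosen with earlier results of these data known. Library values are given for the members called with OmoMYC whose rise or fall ranked among the top 6, 10 fixed members, and all members called with dTAG47, and in other lists called genes past a log2 fold change of 1 (at most 3 each way), or else the largest rise and fall. The study's methods give 3 biological replicates for the OmoMYC experiment and 4 for the parental experiment. The labels number them without naming separate cultures, and p-values measure the spread between these libraries. Counts of 28060817 to 53451641 per library limit the precision of genes with few counts, and the smallest 2-sided p of an exact permutation test is 0.1 for 3 against 3 libraries and 0.0286 for 4 against 4.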

Additional observations from a re-analysis of the deposited data

Results flagged for a closer look

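In groups of 4 libraries, the level of PDHA1, a catalytic subunit of pyruvate dehydrogenase, in dTAG47 replicate 4 was 107 CPM, while the other dTAG47 libraries lay between 101 and 102 CPM. The gap to the nearest of these was 0.912 of the group's range, above Dixon's critical value for 4 samples. Chance alone gives such a value in about 1 in 20 groups. All 34 tested members were checked in both the DMSO and the dTAG47 group, and no other value was flagged. PDHA1 was not called in either experiment. Groups of 3 libraries were not tested in this way.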

How the results depend on the processing

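In the OmoMYC experiment every called member except PKM kept its direction under each alternative. The GC and length correction changed most: 17 members and 5425 genes were lower (17 and 5517 with a replicate block added), the members' median was -0.25 in both, and HK1 (-0.23 in both), PFKL (-0.31 in both), PKM (-0.060 in both) and PFKFB4 (-0.059, and -0.060 with the block) turned lower and PDHB (0.14, and 0.13 with the block) higher. Leaving out a library gave medians from -0.14 to -0.059, members lower from 7 to 13 and genes higher and lower from 2698 to 4065 and from 2842 to 4184. It turned GPI (-0.15 to 0.070), PFKFB3 (-0.13 to 0.023) and PDHB (-0.14 to 0.038). GPI was also above 0 with limma-voom (0.015), library size only (0.014), at least 10 counts (0.00897) and the replicate block (0.014).

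In the parental experiment members called higher numbered 5 with library size only, 14 with the GC and length correction, with or without a block, 18 with the replicate block, 18 with a factor for replicates 1 and 2 against 3 and 4, 0 and 18 for these pairs alone, 16 with DESeq2 and a block, and 1 to 14 without a library. The pairs alone and DESeq2 with a block were chosen after seeing the data. Over all genes the counts higher and lower were 44 and 15 with DESeq2, 306 and 362 with the replicate block, 84 and 43 with the correction, 112 and 46 with the correction and block, 374 and 420 with the factor, 4 and 3 for replicates 1 and 2, 426 and 470 for replicates 3 and 4, 181 and 223 for DESeq2 with a block, and 4 to 52 and 2 to 32 without a library, and 11 were higher with library size only. Values near 0 changed sign. BPGM was at -0.014 for replicates 3 and 4 and -0.0033 to 0.058 without a library, SLC16A1 at 0.039 with the correction, with or without a block, 0.00541 for replicates 1 and 2 and -0.046 to 0.0095 without a library, PDHB at 0.0021 for replicates 3 and 4, DLAT at 0.034 with the correction and 0.033 with the block added, and MPC2 at -0.00550 with library size only, -0.036 for replicates 3 and 4 and -0.025 to 0.033 without a library.

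Same-numbered libraries deviated together with correlations of -0.07 to 0.29 (OmoMYC) and 0.01 to 0.16 (parental), which does not show that the numbers pair the libraries. In the parental experiment the correlations between DMSO and dTAG47 libraries were positive within replicates 1 and 2 and within 3 and 4. They were negative across these pairs. The cause of the higher counts under the block was not tested. Few counts limit PFKFB4 (151 to 299 per library in the OmoMYC experiment) and MPC1 (191 to 338).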
